A study of Mus musculus with 14 samples.

Results

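The transcripts of 8 growth factor and matrix receptor tyrosine kinases were followed across cells sorted from the synovium, the lining tissue of the joint, of mouse knees. The 8 genes were taken by name, out of 47729 genes in the count table: the fibroblast growth factor (FGF) receptors Fgfr1, Fgfr2, Fgfr3 and Fgfr4, the epidermal growth factor receptor Egfr, the hepatocyte growth factor receptor Met, and the collagen receptors Ddr1 and Ddr2. All 8 passed the filter on low counts, which kept 15015 genes.

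The data were 14 RNA libraries of 200 to 500 sorted cells each, from C57BL6 mice aged 16 weeks, with 5, 5 and 4 libraries in 3 groups. The CD105+ arthritic group (libraries 10 to 14) held TER119-CD31-CD45-CD51+CD200-CD105+ cells of mice with antigen-induced arthritis. The CD200+ arthritic group (libraries 5 to 9) held TER119-CD31-CD45-CD51+CD200+CD105- cells of mice treated in the same way. The CD200+ non-immunized group (libraries 1 to 4) held cells of that second surface phenotype from mice given phosphate buffered saline in place of antigen at each step. For the arthritis, mice were immunized with mBSA, a methylated serum albumin of cattle, in complete Freund's adjuvant (CFA) and later received mBSA in the joint, and cells were taken 10 days after that. CD105+ cells of non-immunized mice were not analysed here, so arthritis could be compared only within CD200+ cells. The labels do not say whether the libraries of a group came from separate animals, so p-values measure the spread between these samples.

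Receptor tyrosine kinases are single-pass membrane proteins that dimerise and phosphorylate each other when a ligand binds, and they pass the signal on through adaptors to RAS and the MAP kinases, with feedback inhibitors that damp it. FGF receptors, which bind FGFs together with heparan sulphate, steer the growth and differentiation of skeletal progenitors, and EGFR and MET relay growth and motility signals. DDR1 and DDR2 differ from these in that their ligands are collagens.

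The genes lie on separate chromosomes. In GRCm38 coordinates (GENCODE M21), Fgfr1 (ENSMUSG00000031565) spans chr8:25513654-25575718 on the plus strand, Fgfr2 (ENSMUSG00000030849) chr7:130162451-133123350 on the minus strand, Fgfr3 (ENSMUSG00000054252) chr5:33721674-33737068 on the plus strand and Fgfr4 (ENSMUSG00000005320) chr13:55152640-55168759 on the plus strand. Egfr (ENSMUSG00000020122) spans chr11:16752203-16918158 on the plus strand, Met (ENSMUSG00000009376) chr6:17463800-17573980 on the plus strand, Ddr1 (ENSMUSG00000003534) chr17:35681567-35704621 on the minus strand and Ddr2 (ENSMUSG00000026674) chr1:169972307-170110762 on the minus strand. Fgfr3 shares 998 exon bases, 13.9% of its exon length, with G630022F23Rik on the opposite strand, a gene with 2 counts in all 14 libraries together against 4529 for Fgfr3. Fgfr2 shares 314 exon bases (3.04%) with Ctbp2, so a small part of its reads could not be assigned to 1 of both genes. Ctbp2 lies on the same strand as Fgfr2. The sources used here give no strand setting for the counting, so reads of antisense pairs such as Fgfr3 and G630022F23Rik cannot be told apart.

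Sequence before the RefSeq start is shown for 4 of the genes. It sets the pair with no read in any CD105+ library, Fgfr4 and Met, beside Egfr and Ddr2, which had reads in every one. The sequences come from RefSeq (GRCm38.p6), which gave a promoter entry for 7 of the 8 genes. They run 5′ to 3′ on the strand of the gene, within the 250 bases before the RefSeq start. Each stops before any base that a GENCODE exon of the gene covers. Capitals mark the GC box GGGCGG on either strand and the E-box CANNTG, and where both overlap the capitals run together. The Fgfr4 stretch is chr13:55152568-55152639, that of Met chr6:17463707-17463799, that of Egfr chr11:16751953-16752202 and that of Ddr2 chr1:170088945-170089194.

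Fgfr4: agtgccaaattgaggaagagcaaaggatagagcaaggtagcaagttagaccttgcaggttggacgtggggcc

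Met: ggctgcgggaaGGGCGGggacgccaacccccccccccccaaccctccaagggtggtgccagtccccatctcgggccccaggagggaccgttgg

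Egfr: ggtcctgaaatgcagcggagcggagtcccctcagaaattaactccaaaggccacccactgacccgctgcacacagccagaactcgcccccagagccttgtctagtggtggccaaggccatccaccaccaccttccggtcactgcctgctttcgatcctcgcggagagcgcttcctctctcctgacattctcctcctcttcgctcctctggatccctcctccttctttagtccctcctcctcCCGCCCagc

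Ddr2: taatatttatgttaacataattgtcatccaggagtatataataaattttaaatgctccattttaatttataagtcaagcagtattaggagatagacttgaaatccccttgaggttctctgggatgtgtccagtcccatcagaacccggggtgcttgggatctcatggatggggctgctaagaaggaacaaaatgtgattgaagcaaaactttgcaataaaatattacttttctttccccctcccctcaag

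Counted over the full window of 250 bases, Met held 3 GC boxes and 1 E-box with 74% G and C, and Fgfr4 held 2 GC boxes and 2 E-boxes with 64% G and C. The printed part is 93 bases for Met, with a GC box only, and 72 bases for Fgfr4, with no match. Their other matches lie from the GENCODE gene start on, whereas the Egfr window lies wholly before it. The Egfr window held 1 GC box and no E-box with 60.8% G and C, and that of Ddr2 held neither and was 37.6% G and C. The Ddr2 window lies inside the longer GENCODE gene, past its minus-strand start at chr1:170110762. Its values therefore do not describe sequence upstream of that start and are no match for the other 3. Over all 32851 RefSeq windows of this length, 32.7% held a GC box and 66.2% an E-box, and the median G and C share was 52.4%. A match describes letters in a window and shows no binding.

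Total counts per library ran between 12177437 and 40331071, of which 20.3% to 91.98% fell on the spike-ins, leaving 2919666 to 18553803 counts on genes and 9772 to 18208 genes with a count. Spike-ins took over 80% in non-immunized library 2 and in CD200+ arthritic libraries 5 and 6. Levels are given as CPM, counts scaled to the library's gene counts and by trimmed mean of M-values (TMM), and per kilobase of exon (CPM per kb) wherever genes are compared with each other. In 1 library, 3 counts amounted to 0.170 to 0.910 CPM, a limit of counting error only. The sort markers were checked first. Cd200 averaged 2.29 ± 5.12 CPM in CD105+ arthritic cells, 418 ± 98.4 CPM in CD200+ arthritic cells and 590.2 ± 177 CPM in CD200+ non-immunized cells (SD, n = 5, 5 and 4), and all of its 120 counts among CD105+ libraries were in library 12. Eng, which encodes CD105, averaged 6.60 ± 4.85 CPM in CD105+ arthritic cells, where library 10 had no count, against 0.502 ± 0.582 CPM in CD200+ arthritic cells (n = 5 each). In CD200+ non-immunized cells, sorted as CD105-, Eng averaged 5.27 ± 5.69 CPM (n = 4). By edgeR's quasi-likelihood test Cd200 was lower in CD105+ than in CD200+ arthritic cells (log2 fold change -7.50, SE 1.67, adjusted p = 0.0124), whereas Eng had a log2 fold change of 3.64 (SE 1.64, adjusted p = 0.170). Itgav, which encodes the CD51 that all cells were sorted for, averaged 7.41 ± 9.53 CPM in CD105+ arthritic cells, 35.8 ± 58.7 CPM in CD200+ arthritic cells and 32.2 ± 34.0 CPM in CD200+ non-immunized cells, with a log2 fold change of -2.26 between the arthritic groups (SE 1.23, edgeR adjusted p = 0.267). Ptprc, which encodes the CD45 that all cells were gated against, had 535 counts in 4 of the 5 CD105+ arthritic libraries, 1 count in CD200+ arthritic cells and 338 counts in CD200+ non-immunized library 4 alone. Its log2 fold change between CD105+ and CD200+ arthritic cells was 7.92 (SE 2.64, edgeR adjusted p = 0.0684). Pecam1, which encodes the gated CD31, was at 0.618 ± 0.323 CPM in CD105+ arthritic cells, 0.334 ± 0.123 CPM in CD200+ arthritic cells and 1.49 ± 1.33 CPM in CD200+ non-immunized cells.

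Lists of cell type markers moved with the sorted populations, and their levels belong beside every receptor comparison between them. The summed level of 9 erythroid genes, haemoglobins among them, was 26842 to 246882 CPM in CD105+ arthritic libraries, 4.23 to 10360 CPM in CD200+ arthritic libraries and 1169 to 10151 CPM in CD200+ non-immunized libraries. The summed level of 9 osteoblast genes was 5.25 to 226 CPM in CD105+ arthritic libraries with Runx2 at 0, 23034 to 41189 CPM in CD200+ arthritic libraries and 33399 to 118812 CPM in CD200+ non-immunized libraries. The summed level of 6 muscle progenitor genes was 0 to 7.64 CPM in CD105+ arthritic libraries, 566 to 1502 CPM in CD200+ arthritic libraries and 349 to 1449 CPM in CD200+ non-immunized libraries, and Pax7, Myf5, Myog and Cdh15 had no count in any CD105+ library. The summed level of 7 mural cell genes was 3.77 to 301.2 CPM in CD105+ arthritic libraries, 562 to 1631 CPM in CD200+ arthritic libraries and 374 to 1279 CPM in CD200+ non-immunized libraries. None of these 4 sums overlapped between CD105+ and CD200+ libraries. The cartilage sum of 7 genes overlapped, at 16.8 to 5455 CPM in CD105+ arthritic libraries with library 12 highest, 127 to 4554 CPM in CD200+ arthritic libraries and 1187 to 18449 CPM in CD200+ non-immunized libraries. So did the fibroblast sum of 9 genes, at 2261 to 8800 CPM in CD105+ arthritic libraries, 1427 to 9143 CPM in CD200+ arthritic libraries and 4449 to 8834 CPM in CD200+ non-immunized libraries. Within that sum, Prg4 averaged 1987 CPM in CD105+ arthritic, 789 CPM in CD200+ arthritic and 39.7 CPM in CD200+ non-immunized cells. The other fibroblast genes each had their lowest mean in CD105+ arthritic cells. Endothelial, macrophage, neutrophil, B and plasma cell, skeletal muscle and Schwann cell sums overlapped between CD105+ and both CD200+ groups as well. The macrophage sum was 6345 CPM in CD105+ library 11 and at most 22.4 CPM in the other CD105+ libraries. It reached 147 CPM in CD200+ arthritic and 773 CPM in CD200+ non-immunized libraries. Among CD105+ libraries, library 11 also had the highest neutrophil sum, at 1034 CPM, and the highest Fgfr1, Egfr and Ddr2. The part of these differences in the receptor levels was not tested. In pooled cells, fewer cells of a type and less RNA per cell cannot be told apart.

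Of the 8 receptors, 3 to 5 had a count in each CD105+ arthritic library, 4 to 8 in each CD200+ arthritic library and 6 to 8 in each CD200+ non-immunized library. Fgfr1, Egfr and Ddr2 were the receptors with counts in all 5 CD105+ libraries. All 8 receptors were fitted lower in CD105+ than in CD200+ arthritic cells, and 5 of the 8 (Fgfr1, Fgfr2, Fgfr4, Egfr and Met) passed the threshold of 0.05, beside 11.3% of all genes tested in either direction and 6.48% that fell (edgeR's quasi-likelihood test, Benjamini-Hochberg adjustment over 15015 genes). The median log2 fold change of the 8 was -4.35, against -0.05 over all genes. The groups did not overlap for 4 of the 8, beside 6.33% of all genes that were lower without overlap. With library sizes taken from the spike-ins in place of gene counts, Fgfr4 and Met kept their calls, and Fgfr1, Fgfr2 and Egfr lost them, with log2 fold changes of -3.44, -3.78 and -0.86 and edgeR adjusted p-values of 0.0725, 0.236 and 0.683, while the median of all genes moved to 1.22. These counts describe the 8 genes and set them apart from no other list.

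**Figure D1:**
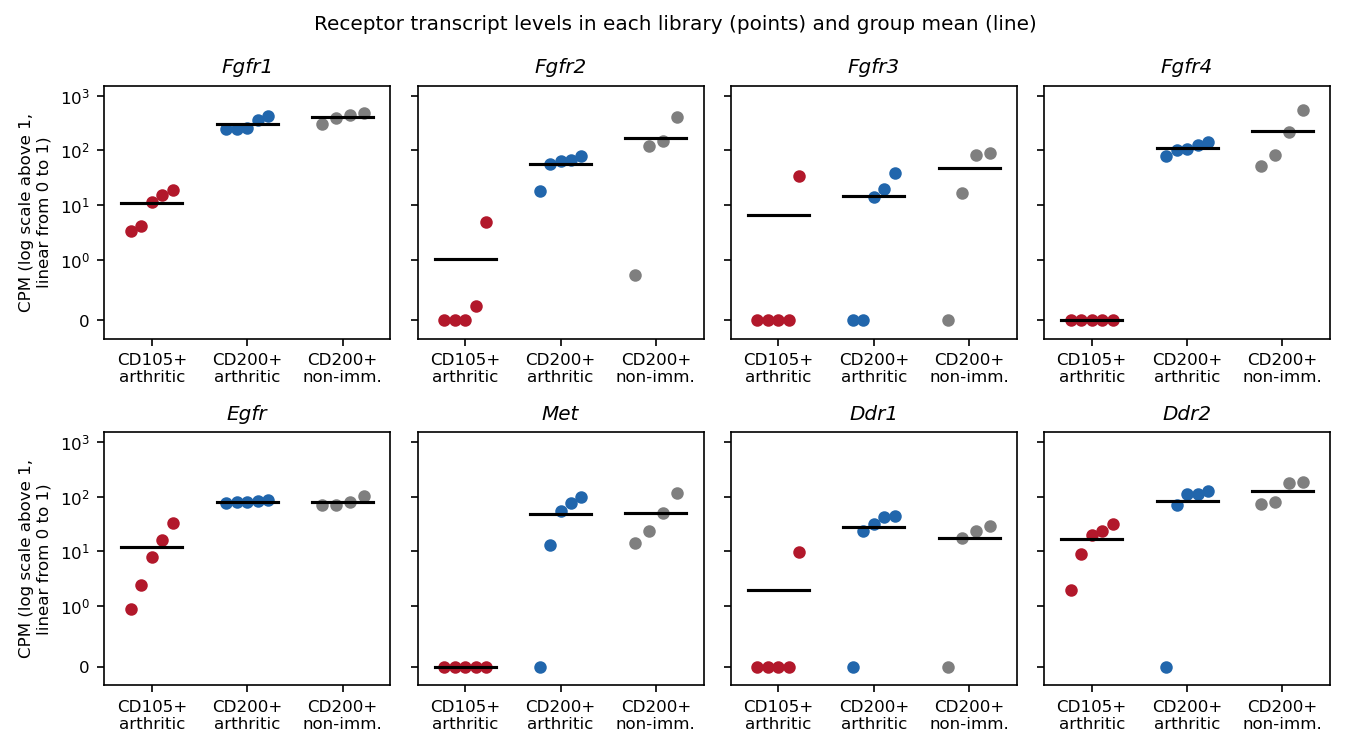
Level of each receptor in each library (points, CPM; log axis above 1 and linear between 0 and 1) with the group mean as a line, for CD105+ arthritic, CD200+ arthritic and CD200+ non-immunized libraries from left to right. Fgfr4 and Met are at 0 in all 5 CD105+ libraries, and Fgfr1 lies at 3.33 to 19.0 CPM there, below every CD200+ library.

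Fgfr1, the FGF receptor most widely found in mesenchymal cells, had 3.33, 19.0, 15.3, 4.15 and 11.5 CPM in CD105+ arthritic libraries 10 to 14. It had 254, 246, 362, 247 and 421 CPM in CD200+ arthritic libraries 5 to 9. In CD200+ non-immunized libraries 1 to 4 it had 389, 449, 300.3 and 486 CPM. Every CD105+ library was thus far under every CD200+ library, while both CD200+ groups overlapped. The log2 fold change between CD105+ and CD200+ arthritic cells was -4.84 (SE 0.49, edgeR adjusted p = 8.18e-05), in means of 10.6 ± 6.84 against 306 ± 80.9 CPM (SD, n = 5 each).

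Fgfr4, in mouse a receptor known from liver and from regenerating muscle, had no read in any of the 5 CD105+ arthritic libraries. It had 105, 78.5, 101, 126 and 143 CPM in CD200+ arthritic libraries 5 to 9 and 51.3, 543, 81.2 and 220.4 CPM in CD200+ non-immunized libraries 1 to 4. The CD105+ group did not overlap with either CD200+ group, and non-immunized library 2, one of the spike-in rich libraries, was the highest. Against 3 counts over the whole CD105+ group (0.0477 CPM), the level in CD105+ cells was at least 2322-fold lower than in CD200+ arthritic cells (edgeR adjusted p = 0.000115). That bound covers counting error only, not the spread between libraries. Myf5 and Cdh15, of the muscle progenitor list, were likewise at 0 in CD105+ libraries, and the part of that list in the Fgfr4 level was not tested.

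Fgfr2, which acts in skeletal and epithelial development, had 0, 0.239, 0, 0 and 4.93 CPM in CD105+ arthritic libraries 10 to 14 and 18.1, 57.0, 77.0, 67.7 and 62.5 CPM in CD200+ arthritic libraries 5 to 9. These groups did not overlap. The non-immunized libraries 1 to 4 spread far more widely, at 408, 0.744, 121 and 149.5 CPM, with library 2 down among the CD105+ values. Between CD105+ and CD200+ arthritic cells its log2 fold change was -5.72 (SE 1.64, edgeR adjusted p = 0.0392). This call was lost when any 1 of libraries 7 to 13 was left out, with edgeR adjusted p-values of 0.0581 to 0.0754, and without library 14 the log2 fold change was -9.39.

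Fgfr3, a receptor of cartilage that restrains the growth of long bones, was found in 1 CD105+ arthritic library only, library 12, at 33.2 CPM from 348 counts. It had 0, 0, 38.5, 13.8 and 19.7 CPM in CD200+ arthritic libraries 5 to 9 and 83.1, 0, 90.3 and 16.4 CPM in CD200+ non-immunized libraries 1 to 4. All 3 groups overlapped. The log2 fold change between CD105+ and CD200+ arthritic cells was -1.12 (SE 2.20, edgeR adjusted p = 0.812), and without library 7 it was -0.25. Without library 12 the CD105+ group was at 0, and the edgeR adjusted p was 0.0677. By counting error alone it was then at least 252-fold lower, against 3 counts over its other 4 libraries. Library 12 was also the CD105+ library with the high cartilage sum of 5455 CPM, where the other 4 had at most 24.0 CPM.

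Egfr had 2.44, 33.4, 0.954, 7.90 and 16.0 CPM in CD105+ arthritic libraries 10 to 14. In CD200+ arthritic libraries 5 to 9 it was nearly even, at 80.3, 77.3, 85.8, 85.4 and 79.8 CPM, and in CD200+ non-immunized libraries 1 to 4 it had 69.2, 104, 70.6 and 80.8 CPM. CD105+ libraries lay below every CD200+ library, and the CD200+ groups overlapped. Between CD105+ and CD200+ arthritic cells Egfr had a log2 fold change of -2.75 (SE 0.73, edgeR adjusted p = 0.0270). This call was lost without library 13 (edgeR adjusted p = 0.0653), without library 14 (0.0524) and without the 3 libraries with over 80% spike-ins (0.0537), and without library 11 the log2 fold change was -3.57.

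Met, the receptor of hepatocyte growth factor, had no read in the 5 CD105+ arthritic libraries. It had 13.3, 0, 54.8, 77.1 and 98.6 CPM in CD200+ arthritic libraries 5 to 9 and 50.2, 14.3, 23.7 and 118 CPM in CD200+ non-immunized libraries 1 to 4. The CD105+ and CD200+ arthritic groups met at 0 through library 6, the library with the largest spike-in share. Against 3 counts over the CD105+ group, Met was at least 1023-fold lower in CD105+ than in CD200+ arthritic cells (edgeR adjusted p = 0.00616). That bound covers counting error only, not the spread between libraries, of which library 6 at 0 is a part. Met is also known from epithelial cells, and the 7 epithelial marker genes had no count in CD105+ libraries, 0 to 44.4 CPM in CD200+ arthritic libraries and 3.91 to 239 CPM in CD200+ non-immunized libraries. In CD200+ arthritic libraries Epcam alone made up that sum, and Cdh1, Krt14, Krt8 and Krt19 were at 0 in every library. The muscle progenitor, osteoblast and mural cell sums were lower in CD105+ libraries too. The part of any of these lists in the Met level was not tested.

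Ddr1, the collagen receptor of epithelial cells above all, had 9.73 CPM (102 counts) in CD105+ library 12 and 0 in the other 4 CD105+ libraries. It had 31.4, 0, 23.7, 42.9 and 44.6 CPM in CD200+ arthritic libraries 5 to 9 and 28.7, 0, 17.4 and 24.0 CPM in CD200+ non-immunized libraries 1 to 4. The groups overlapped, since libraries 2 and 6 were at 0. The log2 fold change between CD105+ and CD200+ arthritic cells was -3.87 (SE 2.14, edgeR adjusted p = 0.276), and this value rests on library 12. Without that library the CD105+ group was at 0 (edgeR adjusted p = 0.0265). By counting error alone it was then at least 499-fold lower, against 3 counts over its other 4 libraries. That bound follows from leaving out the only CD105+ library with Ddr1 counts. It does not cover the spread between libraries, of which CD200+ arthritic library 6 at 0 is a part.

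Ddr2, the collagen receptor of mesenchymal cells, had 2.00, 31.9, 8.97, 19.7 and 23.5 CPM in CD105+ arthritic libraries 10 to 14. It had 69.5, 0, 112, 111 and 125 CPM in CD200+ arthritic libraries 5 to 9 and 187, 81.3, 73.3 and 176 CPM in CD200+ non-immunized libraries 1 to 4. Apart from library 6, at 0, every CD200+ library was above every CD105+ library. The log2 fold change between CD105+ and CD200+ arthritic cells was -2.27 (SE 1.02, edgeR adjusted p = 0.170), and without library 6 the adjusted p was 0.0193.

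**Figure D2:**
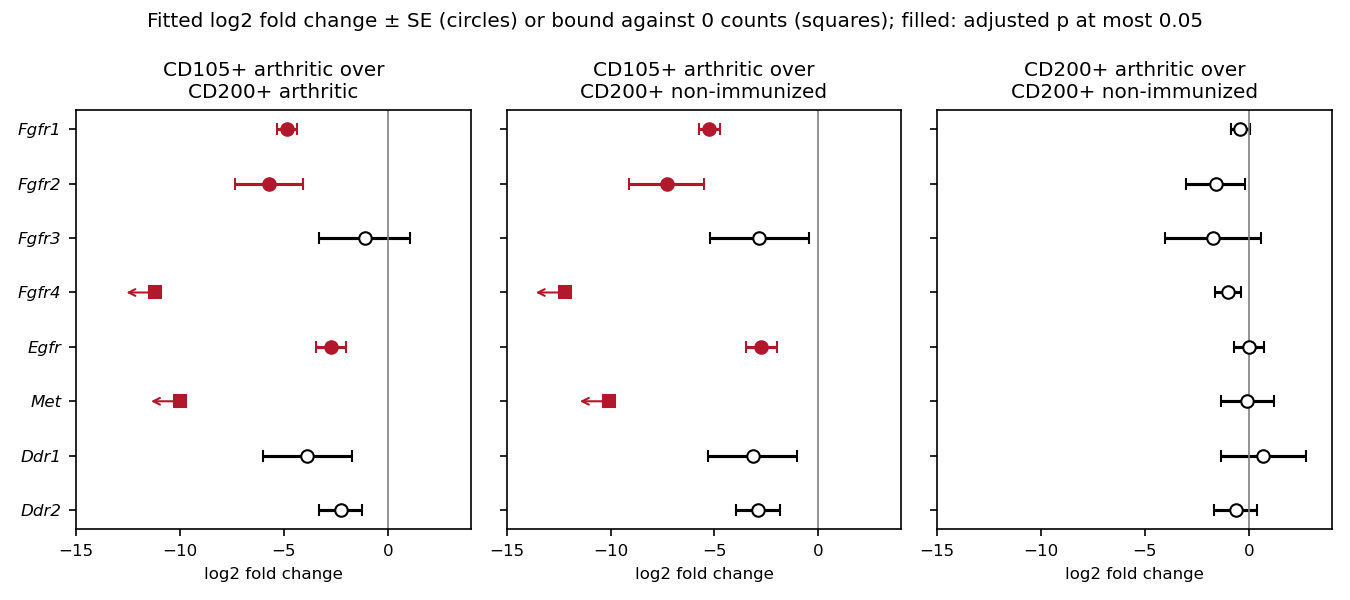
Fitted log2 fold change of each receptor with its SE (circles) or the bound set by 3 counts over a group at 0 (squares with arrows), in the 3 comparisons, filled where the adjusted p was at most 0.05. In both comparisons of CD105+ cells the same 5 receptors are filled and all 8 lie left of 0, while in CD200+ cells none is filled.

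Set against CD200+ non-immunized cells, CD105+ arthritic cells differ in both phenotype and treatment, and this comparison shares its CD105+ libraries with the one above. The receptors past the threshold were Fgfr1, Fgfr2, Fgfr4, Egfr and Met, 5 of the 8 and all lower, beside 13.2% of all genes in either direction and 7.63% that fell. The log2 fold changes were -5.25 for Fgfr1 (SE 0.51, edgeR adjusted p = 6.80e-05), -7.31 for Fgfr2 (SE 1.78, edgeR adjusted p = 0.0167) and -2.74 for Egfr (SE 0.75, edgeR adjusted p = 0.0281). By bounds that cover counting error only, here and below, Fgfr4 was at least 4696-fold lower (edgeR adjusted p = 9.52e-05) and Met at least 1080-fold lower (edgeR adjusted p = 0.00541). Each bound rests in part on 1 non-immunized library: it was 2468-fold for Fgfr4 without library 2 and 617-fold for Met without library 4. Ddr2 did not overlap between the groups but missed the threshold, with a log2 fold change of -2.91 (SE 1.08, edgeR adjusted p = 0.0886). Fgfr3 had -2.84 (SE 2.40, edgeR adjusted p = 0.484) and Ddr1 -3.16 (SE 2.12, edgeR adjusted p = 0.363). Levels did not overlap for 5 of the 8 (Fgfr1, Fgfr4, Egfr, Met and Ddr2), beside 11.5% of all genes that were lower without overlap. The Egfr call was lost without library 2, 4, 13 or 14, with edgeR adjusted p-values of 0.0510 to 0.0660, and without library 12 Fgfr3 (0.0408, at least 830-fold lower) and Ddr1 (0.0271, at least 306-fold lower) also passed. For both genes library 12 held the only CD105+ counts, and non-immunized library 2 was at 0. Log2 fold changes moved to -6.36 without library 1 and -10.97 without library 14 for Fgfr2, and to -3.56 without library 11 for Egfr. With spike-in library sizes Fgfr1 (log2 fold change -3.55, edgeR adjusted p = 0.0833), Fgfr2 (-5.46, 0.117) and Egfr (-0.66, 0.781) lost their calls here too. Relative to the median of all genes these were -4.76, -6.67 and -1.87 with spike-in sizes, beside -5.01, -7.07 and -2.50 with TMM.

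Within CD200+ cells, the comparison of arthritic with non-immunized libraries asked whether the receptors moved with the disease. None of the 8 passed the threshold, with an edgeR adjusted p of 1 for each, and none reached an unadjusted p of 0.05, beside 0% of all genes called. Over all genes 915 had an unadjusted p under 0.05, DESeq2 called 227 (1.54%) and limma voom 4, with no receptor among those of either tool. The log2 fold change was -0.41 for Fgfr1 (SE 0.44), -1.59 for Fgfr2 (SE 1.42), -1.72 for Fgfr3 (SE 2.32) and -1.02 for Fgfr4 (SE 0.62). It was 0.01 for Egfr (SE 0.72), -0.08 for Met (SE 1.27), 0.70 for Ddr1 (SE 2.04) and -0.63 for Ddr2 (SE 1.03), where the sign of Egfr, Met and Fgfr4 turned under at least 1 other setting. The SEs bound what could be seen: for Fgfr1 and Fgfr4 they were 0.44 and 0.62 on the log2 scale, while for Fgfr3 and Ddr1 they exceeded 2 units. No receptor was free of overlap between these groups, beside 2.29% of all genes. Their means were 306 ± 80.9 CPM in arthritic and 406 ± 81.0 CPM in non-immunized CD200+ cells for Fgfr1, and 81.7 ± 3.72 CPM in arthritic and 81.2 ± 16.1 CPM in non-immunized CD200+ cells for Egfr (SD, n = 5 and 4).

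Per kilobase of exon, Fgfr4 and Fgfr1 led the 8 receptors in CD200+ arthritic cells, at 31.2 ± 6.96 and 31.0 ± 8.19 CPM per kb (SD, n = 5), and they overlapped. Fgfr1 lay above Ddr2, the next, in 5 of 5 libraries without overlap. Ddr2 (9.01 CPM per kb), Egfr (7.22), Met (6.35), Ddr1 (5.97), Fgfr2 (5.47) and Fgfr3 (2.01) followed, and none of these neighbours had separate ranges. In CD200+ non-immunized cells the order was Fgfr4 (63.2 ± 63.5 CPM per kb, n = 4), Fgfr1 (41.1 ± 8.21), Fgfr2 (16.4), Ddr2 (14.0), Egfr (7.17), Met (6.70), Fgfr3 (6.63) and Ddr1 (3.67), with overlap between all neighbours. In CD105+ arthritic cells Ddr2 stood first, at 1.86 ± 1.28 CPM per kb (n = 5), then Fgfr1 (1.08), Egfr (1.07), Fgfr3 (0.927), Ddr1 (0.408) and Fgfr2 (0.100), with Fgfr4 and Met at 0. Ddr2 was the highest receptor in 3 of 5 CD105+ libraries, and Fgfr1 or Fgfr4 in all 5 CD200+ arthritic libraries. The order depends on the length used. With the longest protein-coding transcript in place of merged exons, Fgfr1 led in each group. It was at 60.7 against 33.3 CPM per kb for Fgfr4 in CD200+ arthritic cells. In CD105+ arthritic cells it was at 2.11 against 2.01 CPM per kb for Ddr2. Lower places moved too. In CD200+ arthritic cells Fgfr2 went from rank 7 to rank 3, at 13.1 CPM per kb, and Met from rank 5 to rank 7. In CD200+ non-immunized cells Fgfr3 went from rank 7 to rank 5, at 11.2 CPM per kb.

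Shares of the FGF receptor transcripts were taken within each library. Of the summed CPM per kb of the 4 genes, Fgfr1 made up 78.9 ± 32.6% in CD105+ arthritic libraries, 44.4 ± 4.62% in CD200+ arthritic libraries and 34.5 ± 7.77% in CD200+ non-immunized libraries (SD, n = 5, 5 and 4). Fgfr4 made up 0% in CD105+ arthritic libraries, 36.6 to 51.9% in CD200+ arthritic libraries and 13.8 to 77.1% in CD200+ non-immunized libraries. In CD105+ library 12, Fgfr3 made up 75.0%. The shares of 1 library add to the same total, so they do not move on their own, and in CD105+ libraries they rest on low levels. They also depend on the length used, here that of merged exons. In CD200+ arthritic cells merged exons gave means of 31.0 CPM per kb for Fgfr1 and 31.2 for Fgfr4. The longest protein-coding transcript gave 60.7 and 33.3 CPM per kb, so the near equal shares of both genes there hold for merged exons only.

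**Figure D3:**
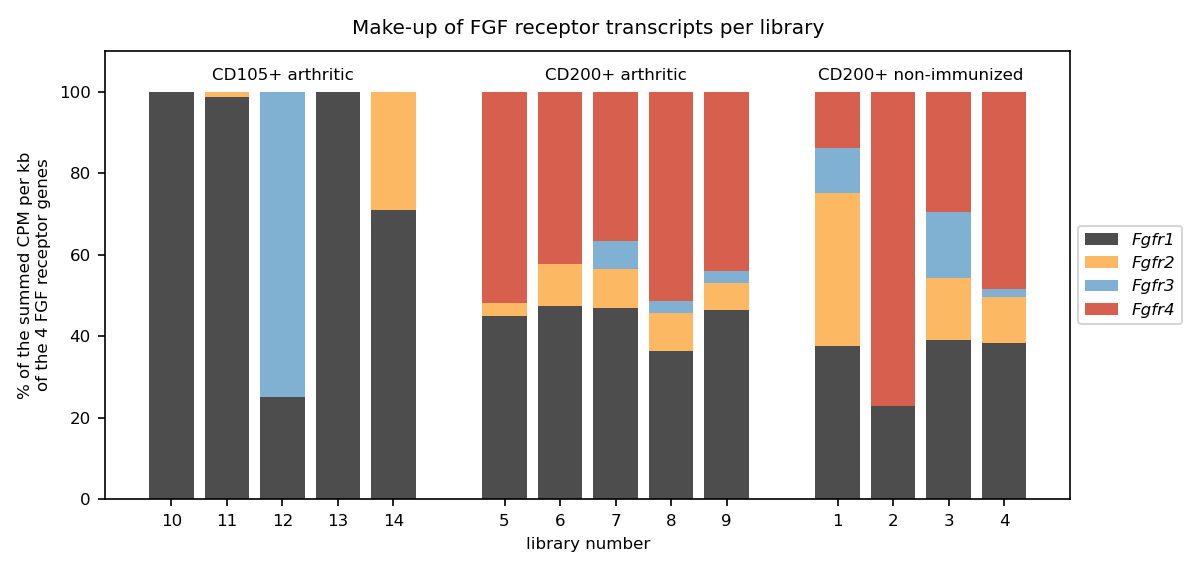
Share of each FGF receptor gene in the summed CPM per kb of merged exons of Fgfr1 to Fgfr4 (vertical axis, %), 1 bar per library, grouped as CD105+ arthritic, CD200+ arthritic and CD200+ non-immunized. Fgfr4 is missing from all CD105+ bars and holds 36.6 to 51.9% in CD200+ arthritic libraries.

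Genes of most like profile were taken as the 3 with the smallest root-mean-square difference in centred log2(CPM + 1) over the 14 libraries, among 10239 genes. The libraries share their group differences, so the measure is a description. For Fgfr1, whose own profile had a root-mean-square of 2.53, they were Vcam1 (0.46), an adhesion molecule, Frmd6 (0.54) and Rbms3 (0.55). For Fgfr2 (own 3.07) they were the leptin receptor Lepr (0.98), Limch1 (1.05) and Ebf3 (1.15), a transcription factor. For Fgfr3 (own 2.64) they were Meltf (0.47), Susd5 (0.83) and the calcium channel Trpv4 (1.07). Library 12 was the highest CD105+ library for Fgfr3 and for each of these 3 genes. For Fgfr4 (own 3.43) they were the acetylcholine receptor subunit Chrnb1 (0.60), the myogenic factor Myf5 (0.62) and M-cadherin, Cdh15 (0.65), each at 0 in every CD105+ library. For Egfr (own 1.84) they were Ank2 (0.55), Thbd (0.58) and Pmepa1 (0.61), and for Met (own 2.83) Kctd15 (0.66), Rapgef4 (0.71) and Abca5 (0.90). For Ddr1 (own 2.39) they were Carmil1 (0.68), Phldb2 (0.82) and Tubb2b (0.98), and for Ddr2 (own 2.19) Per1 (0.62), Ttc19 (0.65) and Atf7 (0.65).

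**Figure D4:**
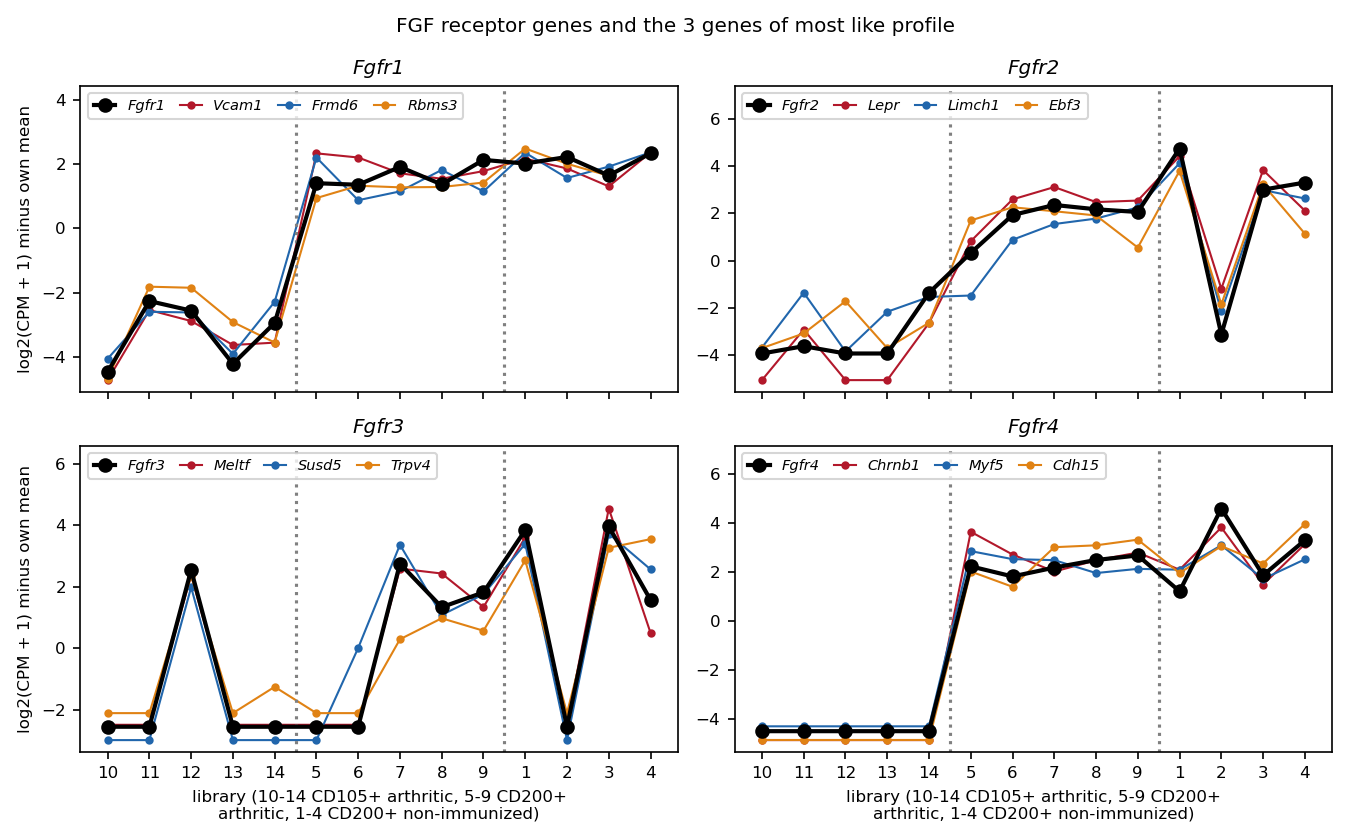
Centred log2(CPM + 1) of each FGF receptor gene (black) and its 3 genes of most like profile (colours) in each library, with dotted lines between CD105+ arthritic, CD200+ arthritic and CD200+ non-immunized libraries; lines only join points of 1 gene. Fgfr4 and its 3 genes are flat at 0 counts in libraries 10 to 14, and Fgfr3 is high in library 12.

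Other genes of the receptors' pathways were taken from 11 lists by role, and 106 of their 147 genes were tested. Between CD105+ and CD200+ arthritic cells 1 rose and 18 fell, beside 4.79% and 6.48% of all genes. With the 3 libraries over 80% spike-ins left out, 1 rose and 28 fell, and with library sizes taken from the spike-ins 3 passed. Within CD200+ cells none of the 106 passed between arthritic and non-immunized libraries by edgeR (DESeq2 called 1, lower), and against CD200+ non-immunized cells 1 rose and 29 fell in CD105+ cells, beside 5.57% and 7.63% of all genes.

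Among ligands, none of 6 tested FGF genes, 2 tested EGFR ligands and 9 collagens passed between CD105+ and CD200+ arthritic cells. Fgf7, an FGF made by mesenchyme, led its list at 12.3 CPM per kb over all libraries, and had 1.48 ± 1.96 CPM in CD105+ arthritic cells against 41.3 ± 40.3 CPM in CD200+ arthritic cells (log2 fold change -4.78, SE 2.02, edgeR adjusted p = 0.142). Col1a2, a chain of type I collagen and so of a ligand of DDR1 and DDR2, had 687 ± 403 CPM in CD105+ arthritic cells against 2929 ± 2122 CPM in CD200+ arthritic cells (log2 fold change -2.09, SE 0.76, edgeR adjusted p = 0.0915). Hbegf, a ligand of EGFR, had 20.3 ± 19.8 CPM in CD105+ arthritic cells against 22.3 ± 39.6 CPM in CD200+ arthritic cells (log2 fold change -0.14, SE 2.13, edgeR adjusted p = 0.980). Hpn, which encodes hepsin, a membrane protease able to activate hepatocyte growth factor, was the gene that rose: 46.6 ± 39.4 CPM in CD105+ arthritic cells against 0.416 ± 0.573 CPM in CD200+ arthritic cells (log2 fold change 6.68, SE 1.58, edgeR adjusted p = 0.0218). It lost the call without library 12 (edgeR adjusted p = 0.0584), and its log2 fold change was 7.42 without library 7. The erythroid sums given above were highest in the same group, and their part in the Hpn level was not tested.

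Of 4 sheddases that free EGFR ligands, Adam9 fell, with 7.97 ± 5.28 CPM in CD105+ arthritic cells against 56.9 ± 30.8 CPM in CD200+ arthritic cells (log2 fold change -2.83, SE 0.70, edgeR adjusted p = 0.0190). Adam10 had 94.0 ± 59.8 CPM in CD105+ arthritic cells against 52.1 ± 41.0 CPM in CD200+ arthritic cells (log2 fold change 0.85, SE 0.76, edgeR adjusted p = 0.539). Of 11 co-receptors and heparan sulphate proteoglycans, which hold FGFs at the cell surface, 2 fell. Glypican 1, Gpc1, had 4.62 ± 5.68 CPM in CD105+ arthritic cells against 158 ± 110.3 CPM in CD200+ arthritic cells (log2 fold change -5.09, SE 1.21, edgeR adjusted p = 0.0168). Syndecan 4, Sdc4, the highest of its list per kilobase, had 13.3 ± 17.7 CPM in CD105+ arthritic cells against 295 ± 107 CPM in CD200+ arthritic cells (log2 fold change -4.47, SE 1.08, edgeR adjusted p = 0.0180). Without library 12 the log2 fold changes were -6.07 for Gpc1 and -5.50 for Sdc4.

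Of 22 other receptor tyrosine kinases tested, 6 fell and none rose: Ror1, Axl, Ryk, Epha4, Igf1r and Ephb3. Ror1, a receptor of WNT signals, had 0.362 CPM in CD105+ arthritic cells against 43.1 ± 22.8 CPM in CD200+ arthritic cells (log2 fold change -6.78, SE 1.34, edgeR adjusted p = 0.00678). Axl, the receptor of GAS6, had 26.0 ± 22.3 CPM in CD105+ arthritic cells against 156 ± 89.4 CPM in CD200+ arthritic cells (log2 fold change -2.59, SE 0.62, edgeR adjusted p = 0.0169). Ryk, a further WNT receptor, had 14.5 ± 8.43 CPM in CD105+ arthritic cells against 76.4 ± 11.1 CPM in CD200+ arthritic cells (log2 fold change -2.40, SE 0.59, edgeR adjusted p = 0.0186). Without library 11 the log2 fold changes of Ror1 and Axl were -7.68 and -3.21. The median log2 fold change of these 22 was -2.33, against -0.05 over all genes.

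Of the genes that act inside the cell, most in each list did not pass. Of 15 adaptors 2 fell, phospholipase C gamma 1 (Plcg1; log2 fold change -3.53, SE 0.72, edgeR adjusted p = 0.00779) and Crk (log2 fold change -2.24, SE 0.54, edgeR adjusted p = 0.0180), and the list's median was -0.71. Of 10 genes of the RAS and MAP kinase chain none passed, with a median of -0.07, and Mapk3 (ERK1), the highest of them per kilobase, had 31.3 ± 17.6 CPM in CD105+ arthritic cells against 53.7 ± 54.2 CPM in CD200+ arthritic cells (log2 fold change -0.78, SE 1.28, edgeR adjusted p = 0.772). Of 13 feedback inhibitors 4 fell (Errfi1, Spry1, Spry2 and Rasa1), with a list median of -4.56. Errfi1, an inhibitor of EGFR, had 23.3 ± 16.6 CPM in CD105+ arthritic cells against 617 ± 459 CPM in CD200+ arthritic cells (log2 fold change -4.72, SE 0.74, edgeR adjusted p = 0.00172). Spry1, an antagonist of FGF signals, had 1.07 ± 1.08 CPM in CD105+ arthritic cells against 159.5 ± 53.2 CPM in CD200+ arthritic cells (log2 fold change -7.19, SE 1.29, edgeR adjusted p = 0.00400), and Spry2 had a log2 fold change of -4.80 (SE 1.16, edgeR adjusted p = 0.0178). Without library 5 the log2 fold changes of Plcg1 and Errfi1 were -2.71 and -4.11.

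Of 10 target genes 3 fell, with a list median of -3.96. The cyclin gene Ccnd1 had 0.554 ± 1.02 CPM in CD105+ arthritic cells against 144 ± 96.6 CPM in CD200+ arthritic cells (log2 fold change -7.92, SE 1.46, edgeR adjusted p = 0.00465). The early response genes Ier2 (log2 fold change -3.82, SE 0.75, edgeR adjusted p = 0.00668) and Egr1 (log2 fold change -5.09, SE 1.16, edgeR adjusted p = 0.0138) fell too. Egr1 had 60.1 ± 54.8 CPM in CD105+ arthritic cells against 2054 ± 464 CPM in CD200+ arthritic cells. Without library 14 Ccnd1 was at a log2 fold change of -10.04, and without library 12 Egr1 was at -5.75. Fos, at 1660 CPM per kb the highest of the list, had 420 ± 577 CPM in CD105+ arthritic cells against 2525 ± 621 CPM in CD200+ arthritic cells and missed the threshold (log2 fold change -2.59, SE 0.87, edgeR adjusted p = 0.0705). Under spike-in library sizes the 3 pathway genes past the threshold were Hpn, Spry1 and Egr1.

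**Figure D5:**
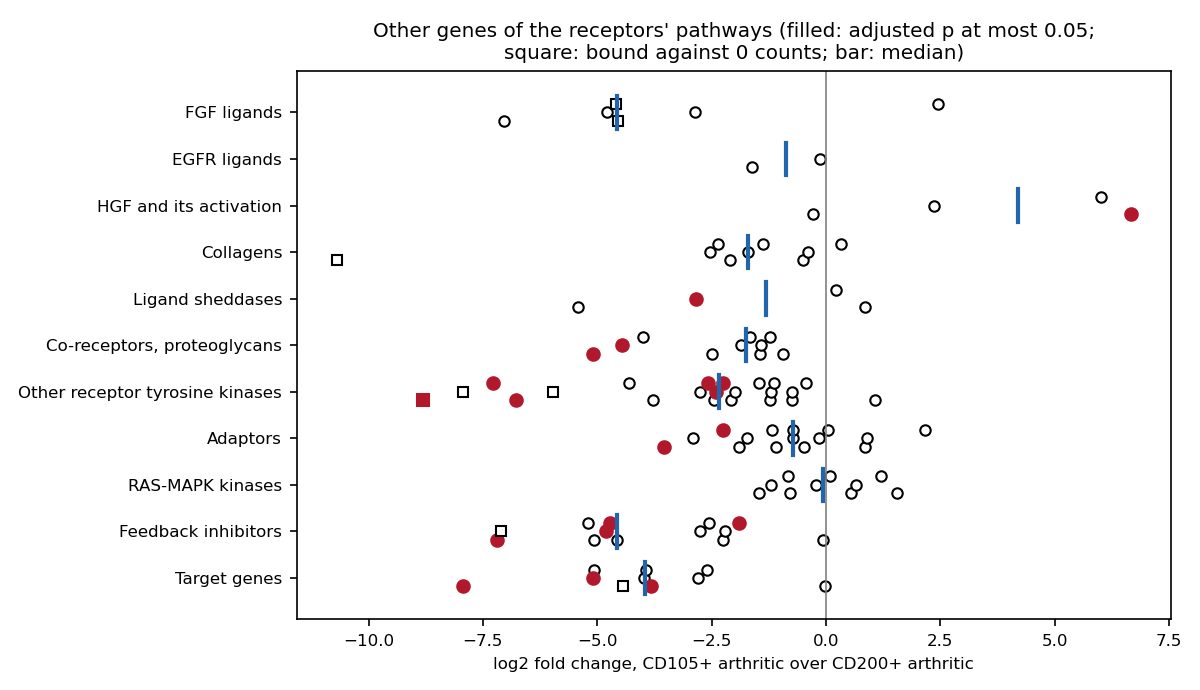
Log2 fold change of each tested pathway gene, CD105+ arthritic over CD200+ arthritic, by role list (rows); filled symbols passed the adjusted p of 0.05, squares are bounds against a CD105+ group at 0 counts, bars are list medians, and Gpc3, with at most 3 counts in either group, is left out. Filled symbols lie left of 0 in every list that has one, except for Hpn in the list of hepatocyte growth factor and its activation.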

How the data were processed

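Gene-level counts of 14 libraries were read from the deposited table as whole numbers, per the file headers and the values; it has 47821 entries, of which 92 are ERCC spike-ins. A further deposited table of 14322 entries held the same counts and entered no test. Per the labels' protocols, cDNA was made with SMART-Seq v4 and read on a NextSeq 500 after Nextera XT. Tools named in the submitters' processing notes, with no version, are HISAT2, StringTie, cutadapt and edgeR; the builds named are mm10 and GRCm38. GENCODE M21 matched 47310 gene IDs and left 419 unmatched.

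From the counts without spike-ins, edgeR 4.0.16 (R 4.3.3) with filterByExpr at a minimum count of 10, TMM and a robust quasi-likelihood fit of all 14 libraries in 3 groups gave two-sided tests with Benjamini-Hochberg adjustment over 15015 genes, at a threshold of 0.05. The common biological coefficient of variation was 1.28 and the median prior degrees of freedom 2.99. SEs of log2 fold changes are approximate, the absolute value over the square root of F. SDs are of CPM over libraries. Alternatives were RLE factors, spike-in library sizes, no filter, a filter of 10 CPM in 4 libraries, no robust shrinkage, fits of 2 groups, DESeq2 1.42.0, limma 3.58.1 (voom with sample weights), each library left out, and all libraries over 80% spike-ins left out. The steps were tested on simulated counts.

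The lowest chi-square per degree of freedom between libraries of a group was 90.5, so none was a duplicate. The 8 genes, the role lists and the 14 marker lists were chosen with earlier results of these data known. Named are the 8 genes, for each the 3 tested genes of most like profile with at least 10 CPM in a group (pseudocount 1 CPM), and of each role list the highest gene per kilobase and up to 3 genes of smallest p past the threshold. Floors of 3 counts, and the bounds set by them, cover counting error only.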

Additional observations from a re-analysis of the deposited data

Results flagged for a closer look

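Of 24 pairs of a receptor and a group, 3 held a library set apart from the rest of its group by Dixon's test, and 2 of the pairs were at 0 throughout. For normally distributed values chance flags about 1 in 20 groups, a rate that does not carry over to groups with many values at 0. All 3 were in CD105+ arthritic cells, where few libraries had counts. Fgfr3 reached 33.2 CPM and Ddr1 9.73 CPM in library 12, with 0 in the other 4 libraries of that group. The test always flags a group in which a single library is above 0. Library 12 was also the one CD105+ library with Cd200 counts, at 11.4 CPM, and its cartilage sum was 5455 CPM; the part of these in the receptor values was not tested. Fgfr2 reached 4.93 CPM in library 14, where the other 4 CD105+ libraries had at most 0.239 CPM.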

How the results depend on the processing

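Between CD105+ and CD200+ arthritic cells, 5 receptors were called, but 2 with spike-in library sizes (Fgfr4 and Met), 3 without a filter, 3 in a fit of both groups alone, 7 by limma voom, and 3 (without library 13) to 6 with 1 library left out. Genes called were 1692, but 545 with spike-in sizes (390 higher, 155 lower, where the adopted fit had 719 and 973), 3268 by DESeq2, 4624 by limma voom, and 1090 (without library 14) to 1713 with 1 library left out. Between CD105+ and CD200+ non-immunized cells, 5 receptors were called, but 2 with spike-in sizes, 8 by limma voom, and 4 to 7 with 1 library left out. Genes called were 1982 (836 higher, 1146 lower), but 278 with spike-in sizes (167 higher, 111 lower), 3768 by DESeq2, 4993 by limma voom and 1308 (without library 14) to 1762 with 1 library left out. With RLE factors the share of higher genes among those called was 31.9%, against 42.2%. In a fit of both groups alone it was 53.8%.

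Between arthritic and non-immunized CD200+ cells no setting called a receptor; genes called were 0, but 227 by DESeq2, 4 by limma voom and 0 to 2 (without library 3) with 1 library left out. Signs turned there for 3 receptors. Egfr was at -0.17 with RLE factors, -0.059 without a filter, -0.0071 with the strict filter, -0.019 in a fit of both groups alone and -0.049 to 0.14 with 1 library left out. Met was at 0.40 with spike-in sizes, 0.55 by limma voom, 0.26 without the libraries over 80% spike-ins and -0.50 to 0.72 with 1 library left out. Fgfr4 was at 0.36 by limma voom and 0.069 without the libraries over 80% spike-ins. The cause was not tested.

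All receptor fold changes between CD105+ and CD200+ arthritic cells stayed below 0 under every setting run. Spike-in sizes moved the median log2 fold change of all genes to 1.22, and relative to it Fgfr1 was at -4.66, Fgfr2 at -5.00 and Egfr at -2.09, with edgeR adjusted p-values of 0.0725, 0.236 and 0.683. The replicate numbers run on across the groups, so they do not show whether CD105+ and CD200+ arthritic libraries came from the same mice. The fits treated all libraries as independent. In libraries 2, 5 and 6, where spike-ins took over 80% of counts, a receptor at 0 was read from fewer gene counts; the part of depth was not tested.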
